A study of Homo sapiens with 9 samples.

Results

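Transcripts of 10 genes of MHC class II antigen presentation were followed in THP-1 cells, a human line derived from an acute monocytic leukaemia. The 10 genes are the class II transactivator CIITA, the invariant chain CD74, the classical chains HLA-DRA, HLA-DRB1, HLA-DPA1, HLA-DPB1, HLA-DQA1 and HLA-DQB1, and the peptide exchange chains HLA-DMA and HLA-DMB. They were taken by Ensembl identifier from the main chromosomes and make up 10 of the 67927 genes with values in the deposited table. Cells in suspension culture received the solvent of lupeol (control), lupeol at 50 µmol/L (lupeol 50) or lupeol at 80 µmol/L (lupeol 80), and RNA was taken after 48 h. Lupeol is a plant triterpene, and each group held 3 RNA-seq libraries. In 1 lupeol 50 library the treatment label gives the unit as mol/L, and its sample description placed it in the group. THP-1 is a single leukaemia line, so no other cell source is represented.

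MHC class II molecules are paired alpha and beta chains that carry peptides from endosomes to the surface of antigen-presenting cells, where CD4 T cells read them. CD74 guides newly made pairs to the endosome and fills their groove, and the DM pair then exchanges its remnant for peptide. CIITA does not bind DNA by itself. It is recruited to class II promoters by a complex on the X and Y boxes that holds RFX, NF-Y and CREB proteins, and in monocytes interferon gamma is its classical inducer.

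The libraries held 26134744 to 38430299 counts, with lupeol 80 replicate 1 the deepest, and 23472 to 26285 genes had a count in a library. Of the control columns, 2 share a heading, so those libraries are named control A and control B beside control 1. Over all tested genes, the root mean square difference in log2 counts per 1000000 (CPM) ran from 0.51 to 0.65 between libraries of a group and from 0.56 to 0.73 between groups. Control B lay nearer to lupeol 50 replicate 1 (0.56) than to control 1 (0.61) or control A (0.60). Monocyte markers were present: in controls CD4 stood at 344 ± 14.9 CPM, LYZ at 151 ± 65.6 and FCGR1A at 111 ± 30.3 (SD, n = 3), while CD68 stood at 0.269 ± 0.191. The labels do not state whether replicate libraries are separate cultures. The p-values below therefore reflect spread between libraries alone, and that spread may be technical. In bulk RNA, fewer cells that express a gene and less RNA per cell cannot be told apart.

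On GRCh38, the build whose gene spans the deposited table matches, CIITA lies on chromosome 16 from 10866222 to 10943021 on the plus strand. CD74 lies on chromosome 5 from 150401637 to 150412969 on the minus strand. The other members lie within the class II region of chromosome 6, from HLA-DRA at 32439878 to HLA-DPB1 at 33089696. Promoter windows of RefSeq (GRCh38.p14), from 250 bases before to 50 bases after the annotated start, were at hand for 8 of the 10 members in 9 windows, since HLA-DPA1 has 2. CIITA and HLA-DRA have no entry. The stretches below are shown because CIITA is recruited through boxes of this kind. By exact letters, each holds an X box core with a Y box or, for HLA-DQA1, HLA-DPB1 and CD74, a Y box only. X and Y boxes with other letters were not searched for, so a stretch may still hold a box that is not marked. Capitals mark an X box core (AG, any 2 bases, AC, any base, then GATG) and a Y box (ATTGG, or CCAAT where it lies on the opposite strand). All are printed 5′ to 3′ on the strand of the gene.

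HLA-DRB1: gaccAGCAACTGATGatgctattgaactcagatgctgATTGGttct
HLA-DQB1: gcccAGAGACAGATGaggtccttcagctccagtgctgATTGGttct
HLA-DMA: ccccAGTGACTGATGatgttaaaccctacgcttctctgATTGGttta
HLA-DMB: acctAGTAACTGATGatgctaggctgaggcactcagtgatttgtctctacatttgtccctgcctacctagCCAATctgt
HLA-DQA1: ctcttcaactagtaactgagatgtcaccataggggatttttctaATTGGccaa
HLA-DPB1: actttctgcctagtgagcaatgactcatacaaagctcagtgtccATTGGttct
CD74: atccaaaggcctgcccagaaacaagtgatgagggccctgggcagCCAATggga

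The HLA-DRB1 stretch is chr6:32589886-32589931 on the minus strand, and that of HLA-DQB1 is chr6:32666737-32666782, also minus. HLA-DMA is shown from chr6:32953168-32953214 and HLA-DMB from chr6:32941042-32941120, both minus. HLA-DQA1 is shown from chr6:32637294-32637346 and HLA-DPB1 from chr6:33075847-33075899, both plus, and CD74 from chr5:150412955-150413007, minus. An X box core was found in 4 of the 9 member windows, against 287 of all 35116 RefSeq windows (0.817%), with both strands searched. A Y box was found in 7 of the 9, against 34.6% of all windows, and CGTCA, the letters at the core of a CREB-bound X2 box, in 5 of the 9, against 24.6%. None of the 3 motifs overlapped another in a member window.

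In HLA-DRB1 and HLA-DQB1, 22 bases separated the X box core from the Y box, and in HLA-DMA 23 bases did. In HLA-DMB 55 bases separated the core from the marked Y box, which lies on the opposite strand and is the only exact match in its window. A core followed on the same strand by a Y box after 15 to 30 bases stood in 7 of the 35116 windows (0.0199%), a spacing set after the member windows were seen. These 7 are the windows of HLA-DRB1, HLA-DQB1, HLA-DMA, HLA-DRB5, MR1, CLEC12A and LOC105371776. The letters of the core were written from the class II X box as it is generally known, so their presence in class II promoters is a description and not a result. Both HLA-DPA1 windows lacked these letters for X core and Y box.

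**Figure D1:**
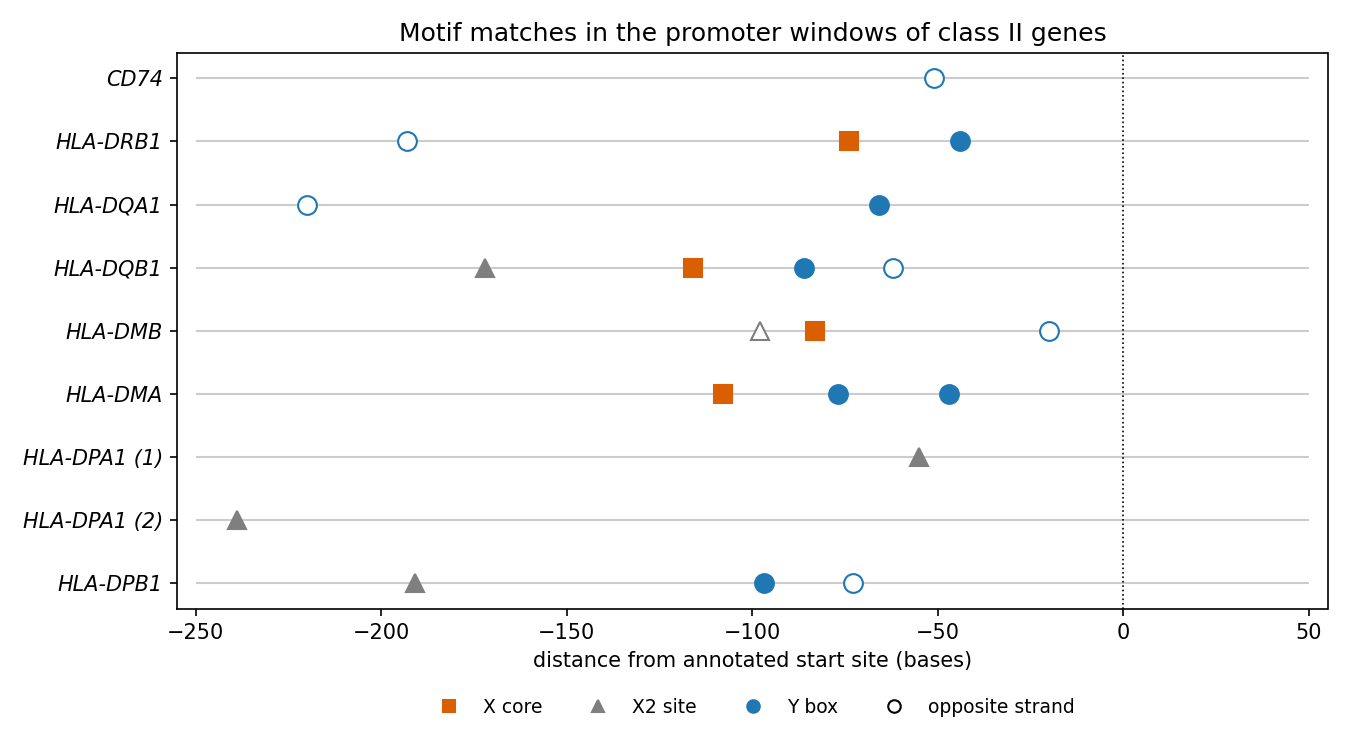
Positions of motif matches in the 9 promoter windows of 8 members, by distance in bases from the annotated start site. Squares are X box cores and circles Y boxes, and open symbols lie on the opposite strand. Triangles (X2 site in the key) are matches to CGTCA anywhere in the window, without a set distance from an X box core. HLA-DRB1, HLA-DQB1 and HLA-DMA share an X core with a Y box 22 or 23 bases further on.

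In the control libraries the members differed widely in level. Per kilobase of the deposited gene length, HLA-DRB1 stood at 58.8 ± 8.49 CPM and CD74 at 46.3 ± 7.54 (SD, n = 3), and the lowest HLA-DRB1 library did not exceed the highest CD74 library. HLA-DRA followed at 8.65 ± 1.55, HLA-DQB1 at 2.84 ± 0.334 and HLA-DMA at 1.26 ± 0.259, each step clear of the spread. CIITA at 0.237 ± 0.0639 and HLA-DPA1 at 0.217 ± 0.0506 did not differ beyond their spread. HLA-DQA1, HLA-DPB1 and HLA-DMB closed the order at 0.0737 ± 0.0405, 0.0657 ± 0.0112 and 0.0349 ± 0.0271 CPM per kilobase, without a gap between neighbours.

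The deposited lengths merge all exons of a gene, which makes CIITA 20763 bases long, while its median coding transcript in GENCODE 29 has 1941.5 bases. Per kilobase of that median transcript, CD74 came first with 184 ± 29.99 CPM and HLA-DRB1 second with 58.8 ± 8.49, and CIITA stood at 2.53 ± 0.683. The other 8 places of the order stayed as they were, but gaps between neighbours moved. On that scale HLA-DRA at 8.79 and HLA-DQB1 at 8.46 CPM per kilobase overlapped, as did HLA-DMA and CIITA. CIITA then lay above HLA-DPA1 in every control library. The longest of the 8 coding transcripts of CIITA has 16059 bases, so its level per kilobase depends strongly on the length chosen. Its overlap with HLA-DMA and its gap to HLA-DPA1 were absent per kilobase of deposited length. Which CIITA transcripts the cells use was not tested, so its place beside these genes is uncertain. CD74 alone held 59.8% to 69.0% of the counts of the 10 members in a library, and the 10 together 0.0196% to 0.0350% of all counts.

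**Figure D2:**
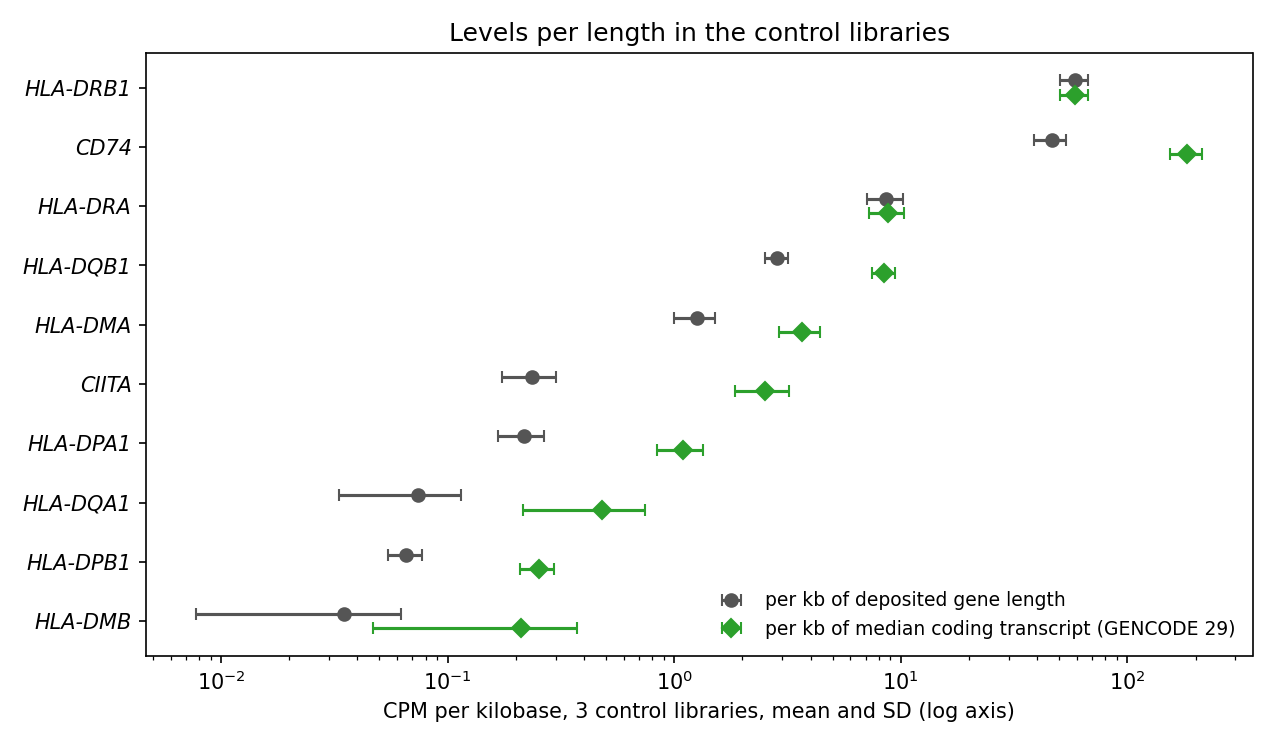
Mean and SD of CPM per kilobase over the 3 control libraries on a log axis, per kilobase of deposited gene length (circles) and of the median coding transcript (diamonds). HLA-DRB1 and CD74 lie above all other members on both scales, and the partner chains HLA-DRA, HLA-DQA1 and HLA-DPB1 lie below HLA-DRB1, HLA-DQB1 and HLA-DPA1.

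Partner chains were unequal in count. The level of HLA-DRB1 per kilobase was 6.29 to 7.21 times that of HLA-DRA in controls and 6.01 to 8.30 times in lupeol 80. In lupeol 50 it was 6.11, 11.3 and 11.5 times in replicates 1, 2 and 3. Replicates 2 and 3 of lupeol 50 thus lay above all other libraries, and replicate 1 lay among the lowest. HLA-DQB1 exceeded HLA-DQA1 26.3 to 97.9 times per kilobase in controls, where HLA-DQA1 had 17, 20 and 5 counts. By median coding transcript length that range was 12.1 to 44.9 times. HLA-DR beta chains are encoded by near-identical genes. No source used here says how multiply aligned reads were counted, so the split between HLA-DRB1 and HLA-DRB5 is uncertain. HLA-DRB1 held 2.95 to 3.93 times the level of HLA-DRB5 per kilobase across the 9 libraries. No count was placed on any of the 2022 genes of the 7 alternate MHC scaffolds, and the match of the alleles of THP-1 to the reference was not tested.

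CIITA, the transactivator, was lower in all 3 lupeol 50 libraries than in any control. Its level was 4.45, 6.41 and 3.89 CPM in controls 1, A and B, then 2.03, 2.68 and 1.63 CPM in lupeol 50 and 4.18, 2.02 and 2.02 CPM in lupeol 80 (replicates 1, 2 and 3). Lupeol 80 replicate 1 therefore lay within the control range, while replicates 2 and 3 of that dose lay at lupeol 50 levels. The fitted log2 fold change was -1.22 ± 0.32 (SE) for lupeol 50 against control, a level 2.33-fold lower, with an edgeR adjusted p of 0.20, and -0.83 ± 0.31 for lupeol 80, with an adjusted p of 0.16. Neither passed the threshold of 0.05. Leaving out control A moved the lupeol 80 value to -0.59 and leaving out lupeol 80 replicate 1 moved it to -1.28 (edgeR adjusted p 0.50 and 0.064). CIITA shares 2424 bases of exon (11.7% of its own) with the opposite-strand gene DEXI, which had 458 counts over the 9 libraries, and the use of strand in counting is not given. CIITA also shares 2378 bases (11.5%) with a same-strand gene that had 0 counts.

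CD74, the invariant chain, was the member with most counts, 3518 to 6942 in a library. It stood at 231, 228 and 170 CPM in controls, at 187, 132 and 130 CPM in lupeol 50 and at 177, 158 and 149 CPM in lupeol 80. The highest library of each dose lay above control B, so the groups overlapped, and 2 of 3 libraries of each dose lay below every control. The fitted change was -0.48 ± 0.15 at 50 µmol/L and -0.38 ± 0.15 at 80 µmol/L, and between the doses it was 0.10 with a 95% interval from -0.21 to 0.42.

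The DR chains form the main surface class II molecule of monocytes. HLA-DRA was at 12.5, 11 and 8.71 CPM in controls, at 10.3, 4.43 and 4.71 CPM in lupeol 50 and at 11.9, 7.22 and 8.52 CPM in lupeol 80. Replicates 2 and 3 of lupeol 50 were the lowest of all 9 libraries, and replicate 1 lay within the control range. HLA-DRA had a fitted change of -0.73 ± 0.30 at 50 µmol/L (edgeR adjusted p 0.35), which became -1.23 with an adjusted p of 0.016 without lupeol 50 replicate 1. At 80 µmol/L the change was -0.22 ± 0.30.

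HLA-DRB1 varied less. It stood at 77.9, 78.5 and 60.2 CPM in controls, at 62.1, 49.6 and 53.5 CPM in lupeol 50 and at 70.6, 47.7 and 69.8 CPM in lupeol 80. Its lowest library was lupeol 80 replicate 2, and both doses overlapped the controls. The fitted changes were -0.39 ± 0.16 and -0.20 ± 0.15. HLA-DRB5, a second DR beta chain outside the 10, gave -0.36 ± 0.15 and -0.31 ± 0.15.

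HLA-DQB1, the DQ beta chain, had the smallest p among the members. Its levels were 15.8, 12.9 and 13 CPM in controls, 8.87, 7.44 and 8.56 CPM in lupeol 50 and 13.6, 9.24 and 13.1 CPM in lupeol 80. All 3 lupeol 50 libraries lay below every control and below every lupeol 80 library, while 2 of the 3 lupeol 80 libraries lay within the control range. The fitted change was -0.74 ± 0.18 at 50 µmol/L, a level 1.67-fold lower (edgeR p 7e-04, adjusted p 0.19), and -0.21 ± 0.18 at 80 µmol/L. Between the doses, lupeol 80 stood 0.53 ± 0.18 above lupeol 50 (95% interval 0.15 to 0.91, edgeR adjusted p 0.19). HLA-DQB1 shares 241 bases of exon with its antisense gene HLA-DQB1-AS1, which had 32 counts over all libraries. HLA-DQA1, its alpha chain partner, had 17, 20 and 5 counts in controls, 11, 0 and 4 in lupeol 50 and 17, 7 and 3 in lupeol 80, so its fitted changes of -1.49 ± 0.87 and -0.94 ± 0.82 carry wide errors. The count of 0 in lupeol 50 replicate 2 allows a level of up to 0.112 CPM.

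The DP chains were low. HLA-DPA1 had 32, 45 and 26 counts in controls, 38, 22 and 23 in lupeol 50 and 74, 38 and 55 in lupeol 80, and HLA-DPB1 had 5 to 22 counts in each of the 9 libraries. In both genes the highest level was in lupeol 80 replicate 3 and the lowest in lupeol 50 replicate 2, and the groups overlapped. HLA-DPA1 gave -0.33 ± 0.37 at 50 µmol/L, 0.44 ± 0.36 at 80 µmol/L and 0.76 ± 0.37 between the doses (95% interval 0 to 1.53). HLA-DPB1 gave -0.44 ± 0.65 and 0.53 ± 0.62 against control. The 2 genes lie head to head and share 96 bases of exon.

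The DM chains exchange peptides in the endosome. HLA-DMA stood at 3.88, 2.59 and 3.06 CPM in controls, at 3.51, 3.20 and 3.08 CPM in lupeol 50 and at 3.87, 2.84 and 3.71 CPM in lupeol 80. Every treated library lay within the control range. The fitted change was 0.04 at 50 µmol/L (95% interval -0.49 to 0.57) and 0.13 at 80 µmol/L (-0.39 to 0.66), so changes of CIITA's size lay outside these intervals. HLA-DMA shares 55 bases of exon with BRD2 on the opposite strand, a gene with 92594 counts over the 9 libraries. HLA-DMA also shares 160 bases, and HLA-DMB 438 bases (9.49% of its own), with a same-strand gene that had 5 counts. HLA-DMB had 8, 3 and 2 counts in controls, 10, 0 and 0 in lupeol 50 and 13, 2 and 0 in lupeol 80, and it was not tested because it did not pass the filter on low counts. Its highest library in each group was the first listed one.

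**Figure D3:**
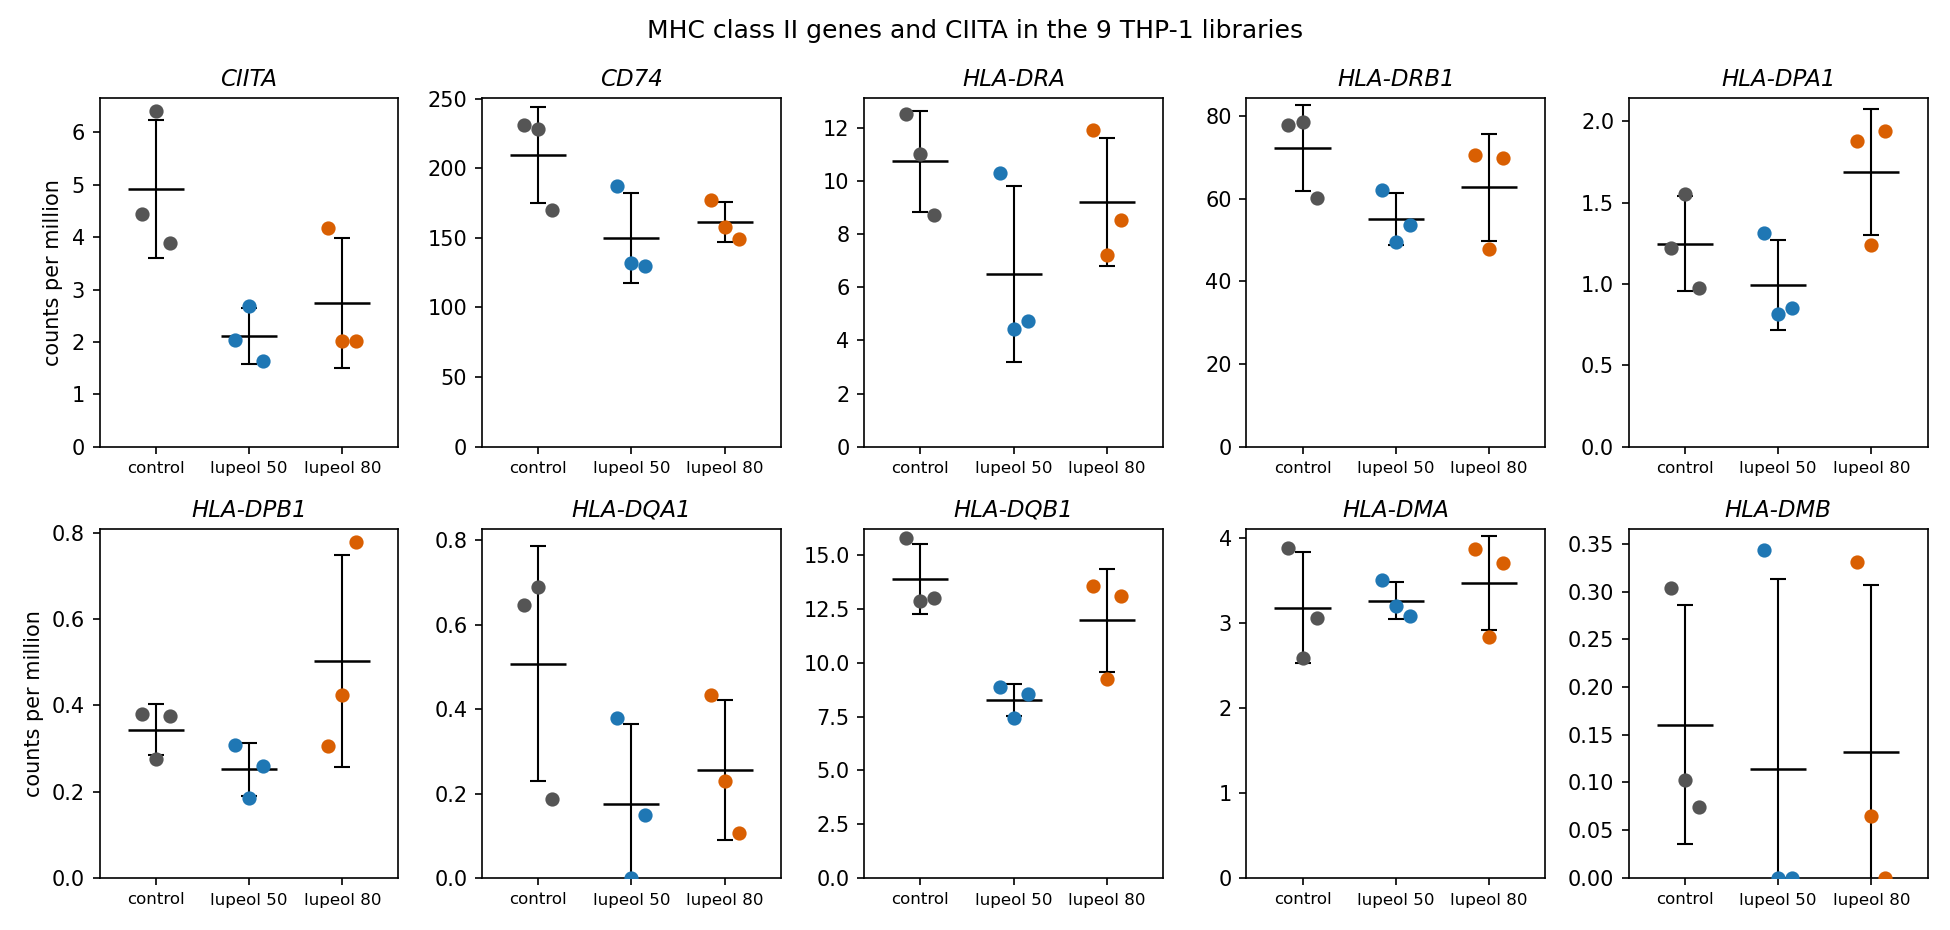
CPM of the 10 members in each library (points) with the mean and SD of the 3 libraries of a group (line and bar), each gene on its own linear axis from 0, where bars that reach below 0 are cut. CIITA and HLA-DQB1 are lower in all 3 lupeol 50 libraries than in any control, while HLA-DMA overlaps in all groups.

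The question put to the members together was whether class II transcripts changed with dose, and no member passed the test in any comparison. Of the 9 members tested with edgeR at an adjusted p under 0.05, 0 were called at 50 µmol/L, where 0% of all 17568 tested genes were called. At 80 µmol/L 0 of 9 were called against 1.14% of all genes, and between the doses 0 of 9 against 0.0455%. The test across the 3 groups at once called 0 of 9 against 0.233% of all genes, with its smallest adjusted p at 0.09 for HLA-DQB1 and 0.10 for CIITA. At an unadjusted p under 0.05, that test held 3 of 9 members against 19.9% of all genes. DESeq2 called 2 of 9 in its version of that test (6.11% of all genes), and edgeR without the filter on low counts called 4 (4.22%).

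For lupeol 50 against control, 8 of the 9 fitted changes were below 0, against 50.5% of all genes, and their median was -0.48, against 0 over all genes. The exception was HLA-DMA. An unadjusted edgeR p under 0.05 with a lower level was reached by 5 of the 9 (CIITA, CD74, HLA-DRA, HLA-DRB1 and HLA-DQB1), against 6.02% of all genes, and 2 of the 9 had all lupeol 50 libraries below all controls, against 9.63%. DESeq2 called 2 members, CIITA and HLA-DQB1, with adjusted p of 0.030 and 0.020, where it called 1.30% of all genes. limma-voom called 0 of 9. Without the filter on low counts, edgeR called 4 of the 9 (CIITA, CD74, HLA-DRA and HLA-DQB1), where 1.54% of all genes were called. Leaving out lupeol 50 replicate 1 gave 2 edgeR calls, CD74 and HLA-DRA, against 2.34% of all genes. Leaving out both control B and lupeol 80 replicate 1, a pair chosen after their values were seen, gave 3 (CIITA, CD74 and HLA-DQB1) against 5.08%.

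For lupeol 80 against control, 6 of 9 changes were below 0, against 48.9% of all genes, and the median was -0.21, against 0.01 over all genes. CIITA and CD74 were the 2 members with an unadjusted edgeR p under 0.05, against 10.7% of all genes that were lower at that p. The groups overlapped in all 9 members, while 12.9% of all genes had every lupeol 80 library below and 11% above the controls. DESeq2, which called 5.18% of all genes, and limma-voom called 0 of 9. Leaving out the same pair of libraries gave 1 edgeR call, CIITA, against 4.78% of all genes. Between the doses, all 9 tested members had a higher fitted level in lupeol 80 than in lupeol 50, with a median of 0.51, against 0 over all genes, of which 50% were below 0. HLA-DQB1 alone had a p under 0.05 there, against 7.23% of all genes that were higher at that p, and it alone had all lupeol 80 libraries above all lupeol 50 libraries, against 9.42%. That median fell to 0.10 without lupeol 80 replicate 1. Both doses share the same controls, and the values of the 2 doses are therefore given side by side. The comparison between the doses also reuses the lupeol 50 libraries, so its direction is not independent of that of lupeol 50 against control.

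**Figure D4:**
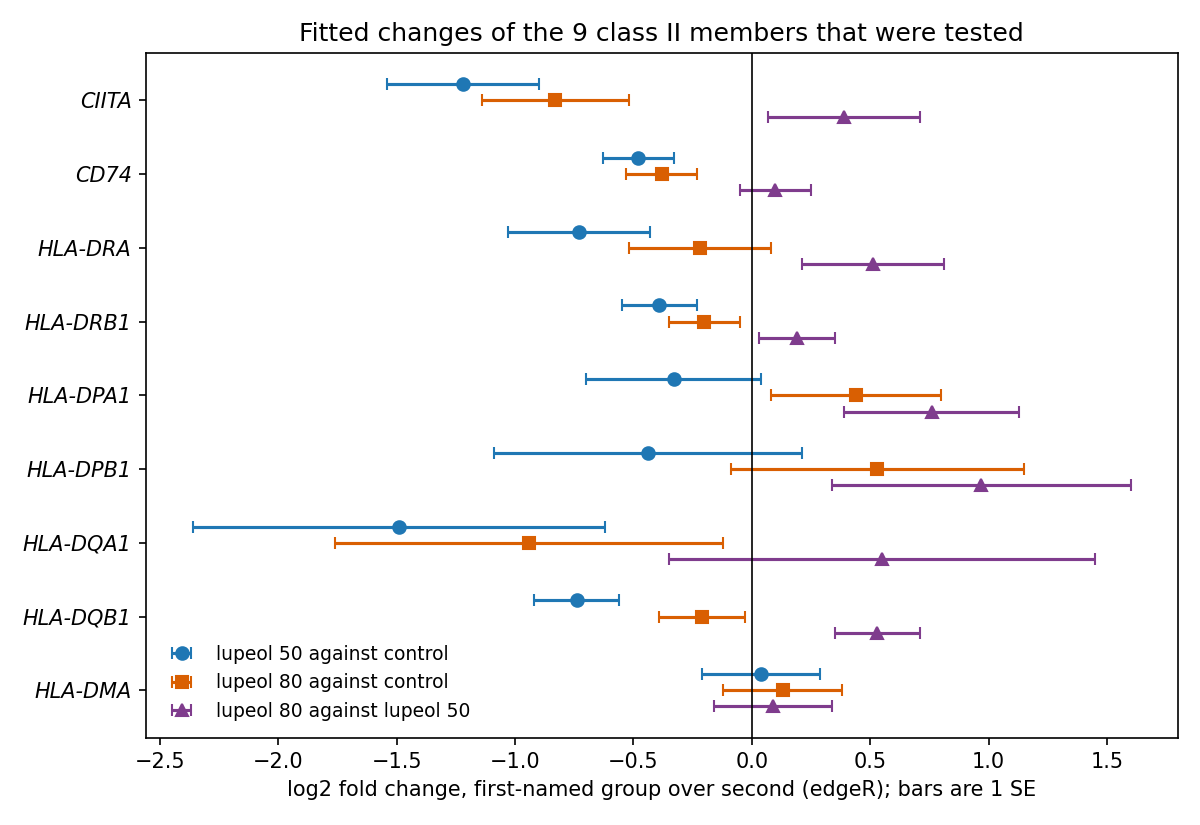
Fitted log2 fold changes of the 9 tested members with 1 SE, for lupeol 50 against control (circles), lupeol 80 against control (squares) and lupeol 80 against lupeol 50 (triangles). The circles lie below 0 for all but HLA-DMA, the triangles lie above 0, and HLA-DQA1 and HLA-DPB1 have the widest bars.

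The libraries of a treated group did not move alike. Within lupeol 50, replicate 1 was the highest library for 9 of the 10 members, the exception being CIITA. Within lupeol 80, replicate 1 was the highest for 8 of the 10, the exceptions being the 2 DP chains. After each gene was centred on its mean over the 9 libraries, the median of the 9 tested members was 0.44, 0.33 and 0 in controls 1, A and B on the log2 CPM scale. It was 0.05, -0.57 and -0.38 in lupeol 50 and 0.29, -0.20 and 0.16 in lupeol 80. Replicate 1 of lupeol 50 thus lay at the level of control B, and replicates 1 and 3 of lupeol 80 lay between controls A and B.

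**Figure D5:**
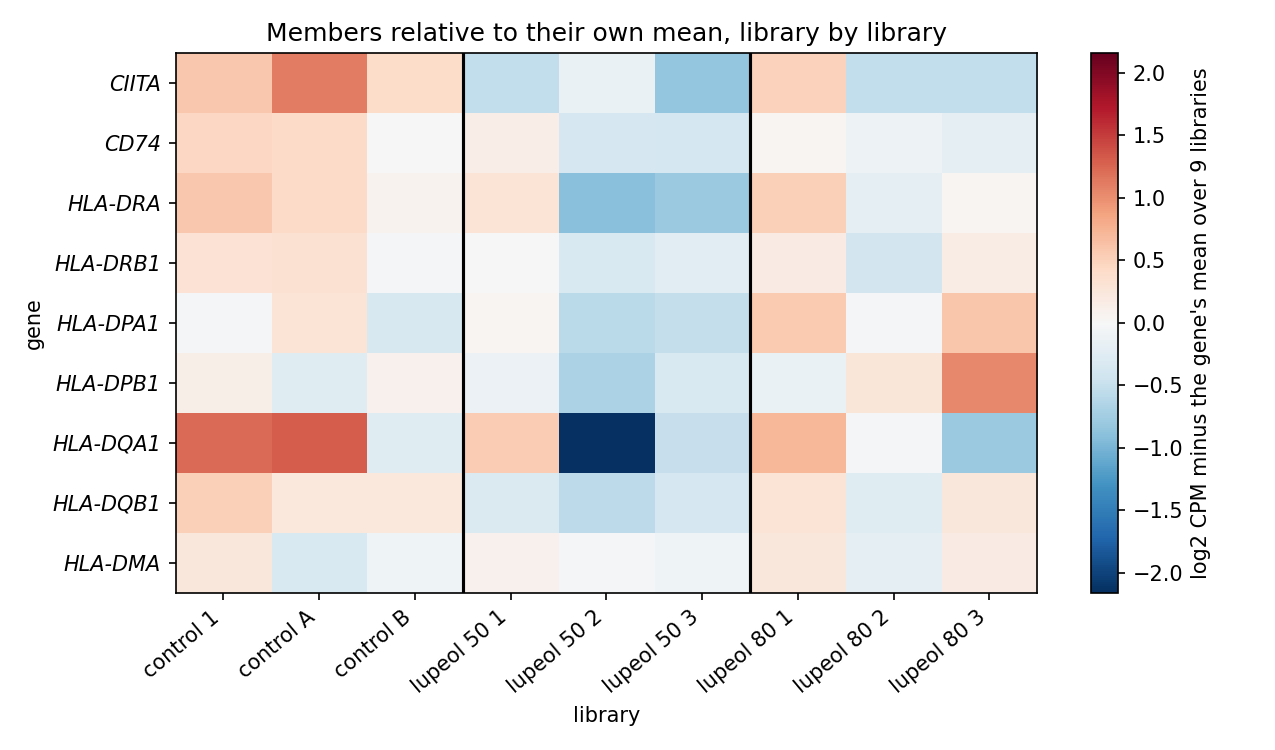
Log2 CPM (prior count 2) of the 9 tested members minus each gene's own mean, with the 9 libraries in columns and lines between the groups; red is above and blue below the mean. Replicates 2 and 3 of lupeol 50 lie below the mean in all 9 members, HLA-DMA by little, and control 1 lies above it in all but HLA-DPA1.

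As a description over the 9 libraries, which share the group differences and the depth of each library, CD74 followed CIITA most closely among the members (Pearson r 0.758 of log2 CPM, Spearman rho 0.80). HLA-DRB1 had r 0.680, HLA-DQB1 0.669, HLA-DRA 0.621 and HLA-DQA1 0.564. By Spearman rho the order of these differed, with HLA-DRA and HLA-DQA1 at 0.733, HLA-DRB1 at 0.683 and HLA-DQB1 at 0.483. HLA-DPA1 had r 0.264, HLA-DMA -0.104 and HLA-DPB1 -0.196. Among the 10772 other genes whose mean reached 5 CPM, the 5 most like CIITA were PLEKHA2 (r 0.935), CARD16 (0.934), GALNT6 (0.927), DHCR7 (0.925) and SCPEP1 (0.924). DHCR7, which makes the last step of cholesterol synthesis, stood at a mean of 26.1 CPM in controls, 5.35 in lupeol 50 and 11.6 in lupeol 80. The 5 genes most like the mean of the other 8 tested members were GLIPR2 (r 0.974), ACSS2 (0.965), MCM3 (0.959), BIK (0.958) and LAMP5 (0.953), over the same 9 libraries.

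Genes of the complex that carries CIITA to DNA had levels from 14.7 CPM (RFXAP) to 818 CPM (NFYC) in controls. All 7 genes of the promoter complex were tested, and 0 were called by edgeR in either dose, with 1 of 7 lower and 1 higher at an unadjusted p under 0.05 at 50 µmol/L (against 6.02% and 6.4% of all genes) and 1 lower at 80 µmol/L (10.7%). The lower gene was RFX5 at 50 µmol/L and RFXANK at 80 µmol/L, and the higher one was NFYA. RFXANK, named after its values were seen, gave -0.03 ± 0.15 and -0.40 ± 0.15. All its lupeol 80 libraries lay below all controls, against 12.9% of all genes. RFX5 is a subunit of the X box binding complex. It stood at 138 ± 13.6 CPM in controls, 114 ± 8.63 in lupeol 50 and 115 ± 19.8 in lupeol 80 (SD, n = 3). Its fitted changes were -0.29 ± 0.13 and -0.27 ± 0.13. NFYA and NFYC, subunits of the Y box binder NF-Y, gave 0.30 ± 0.11 and 0.10 ± 0.10 at 50 µmol/L and 0.07 ± 0.11 and 0.01 ± 0.10 at 80 µmol/L. CREB1 gave -0.12 ± 0.13 and 0.06 ± 0.13. The median over the 7 was -0.03 at 50 µmol/L and 0.06 at 80 µmol/L.

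Of the 16 genes of interferon gamma signalling and CIITA control, 14 were tested and 0 were called by edgeR in either dose. At an unadjusted p under 0.05, 1 was lower and 1 higher at 50 µmol/L, against 6.02% and 6.4% of all genes, and 4 were lower at 80 µmol/L, against 10.7%. IRF8, a myeloid interferon regulatory factor, gave fitted changes of -0.28 ± 0.12 and -0.11 ± 0.12, and SPI1, the myeloid factor PU.1, gave -0.05 ± 0.12 and -0.32 ± 0.12. EP300, a histone acetyltransferase, gave 0.08 ± 0.18 and -0.08 ± 0.18. DESeq2 called 1 of the 14 lower at 80 µmol/L, against 5.18% of all genes called, and 0 at 50 µmol/L. That gene, named after its values were seen, was USF1, a factor that binds CIITA's promoter IV, with an edgeR change of -0.46 ± 0.11 (adjusted p 0.052).

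Endosomal genes that prepare peptides and invariant chain were also without an edgeR call, 0 of 13 tested in either dose. At an unadjusted p under 0.05, 2 were lower and 1 higher at 50 µmol/L, against 6.02% and 6.4% of all genes. At 80 µmol/L 5 were lower and 1 higher, against 10.7% and 8.84%. CTSZ, a lysosomal peptidase, gave -0.56 ± 0.15 and -0.47 ± 0.15, CTSB 0.01 ± 0.13 and -0.20 ± 0.13, LAMP1 -0.02 ± 0.10 and -0.11 ± 0.10, and RAB7A 0.11 ± 0.11 and 0.15 ± 0.11. Over 18 alternative settings, CTSZ was called in 4 at 50 µmol/L and in 3 at 80 µmol/L. CTSB, LAMP1 and RAB7A were called in 0 at either dose. In the list of class II turnover and co-stimulation, edgeR called 0 of 7 tested genes in either dose, and DESeq2 called 1 higher at 80 µmol/L, against 5.18% of all genes called. That gene, named after its values were seen, was MARCHF1, a ubiquitin ligase that removes class II molecules from the surface. It stood at 3.04, 2.97 and 2.88 CPM in controls, 2.61, 3.57 and 4.04 CPM in lupeol 50 and 5.37, 5.68 and 4.46 CPM in lupeol 80. All lupeol 80 libraries lay above all others, and the fitted change was 0.80 ± 0.24 at 80 µmol/L (edgeR adjusted p 0.088) and 0.20 ± 0.24 at 50 µmol/L. In the same list ICAM1 gave 0.23 ± 0.44 and -0.88 ± 0.45, CD83 0.63 ± 0.30 and 0.26 ± 0.30, CD40 0.08 ± 0.20 and -0.46 ± 0.21, and CD58 -0.05 ± 0.19 and 0.34 ± 0.19. Among the other class II chains, HLA-DOB stood at 0.456 ± 0.217 CPM in controls, HLA-DOA and HLA-DQA2 had mean levels of 0.0154 and 0.0165 CPM over the 9 libraries, and HLA-DQB2 had no count.

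The class I genes, presented here for contrast only, gave edgeR calls at the higher dose. Of 15 tested, 5 fell at 80 µmol/L (PSMB10, PSMB9, HLA-F, TAP1 and TAPBP, of the immunoproteasome, a class I chain and the peptide loading machinery), against 0.854% of all genes called lower, and 0 were called at 50 µmol/L. PSMB10 changed by -1.01 ± 0.16 (edgeR adjusted p 0.017) and HLA-F by -1.28 ± 0.26 (0.027). TAP1 changed by -0.80 ± 0.18 and TAPBP by -0.72 ± 0.17 (both 0.046), and PSMB9 by -0.63 ± 0.12 (0.027). Leaving out control 1 or control A brought the count to 0, and then 0 of 18205 and 1 of 18150 genes were called in all. Without control 1 the fitted changes were still -0.95 for PSMB10 and -1.26 for HLA-F, and without control A they were -0.97 and -1.27. The count came to 1 without lupeol 80 replicate 3 (0.237% of all genes called) and to 2 without lupeol 50 replicate 3 (0.236%). It came to 3 without lupeol 50 replicate 2 (0.636%) or without lupeol 80 replicate 1 (0.91%). HLA-B gave -0.49 ± 0.12 (0.051) and B2M -0.07 ± 0.13 at that dose. Whether the class I and class II lists differ in their response was not tested.

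Markers of other class II positive cells were mostly absent. Of 7 B cell markers, MS4A1 and BLK had no count, and 5 of 7 had a mean under 1 CPM. PAX5, however, stood at 43.6 ± 4.24 CPM in controls. The summed B cell list was 45.5 to 53.3 CPM in controls, 42.2 to 61.7 in lupeol 50 and 20.8 to 36.7 in lupeol 80. It lay lower in all lupeol 80 libraries, and its part in the class II values was not tested. PAX5 made up most of this sum, at 51.8 ± 11.8 CPM in lupeol 50 and 27.6 ± 8.77 in lupeol 80. All 8 dendritic cell markers and all 6 T cell markers had means under 1 CPM. The dendritic list summed to 1.06 to 1.49 CPM in controls, 0.481 to 1.71 in lupeol 50 and 0.318 to 0.840 in lupeol 80, and CLEC9A and CLEC4C had no count. The T cell list summed to at most 0.822 CPM in any library, and CD3E and CD3G had no count. Of 6 fibroblast or endothelial markers, COL1A2, COL3A1 and CDH5 had no count, and PECAM1, which monocytes also express, stood at 382 ± 44.5 CPM in controls and made up most of a sum of 357 to 468 CPM across the libraries.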

How the data were processed

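RNA-seq was measured in 9 libraries of THP-1 cells, 3 per group. The authors deposited raw counts per gene for all libraries in 1 table, beside each gene's exons and its length. Bowtie 0.12.2 and the mouse build mm8 are named, per the submitters' processing notes. The table holds human Ensembl genes: 35966 versioned identifiers are shared with GENCODE 29, and all 35966 have the same span there, on GRCh38. How reads were assigned to genes, by strand and when they align in several places, is not given in the sources used. Of 67928 genes, 1 has empty values and was left out.

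R 4.3.3 and edgeR 4.0.16 were used. The filter filterByExpr left 17568 genes, and after TMM scaling a robust quasi-likelihood model with a term for each group was fitted once to all 9 libraries. P-values were adjusted over all tested genes by the Benjamini-Hochberg method, with calls at an adjusted p under 0.05. Residual degrees of freedom were 6, and the biological coefficient of variation was 0.178. Levels are TMM-scaled CPM with the SD over 3 libraries, and errors of log2 fold changes are SE. Intervals cover 95%, and a count of 0 allows up to 3 counts. The former cover the spread between these libraries and the latter counting error, and no molecular identifiers are named, so reads may be copies of 1 molecule. DESeq2 1.42.0, limma 3.58.1 (voom), other scalings, no filter, and leaving out libraries were alternatives. The fit was tested on simulated data. Plots and motif searches used Python.

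The 10 members and all lists were chosen with earlier results of these data known. Named genes were all members, and of each other list the called genes and the 4 of highest mean CPM, of which some are not reported here. Genes like CIITA were the 5 with the highest Pearson r among genes of at least 5 CPM (log2 CPM, prior count 2).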

Additional observations from a re-analysis of the deposited data

How the results depend on the processing

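The median change of the members kept its direction under all 18 alternatives in each comparison. For lupeol 50 against control, no filter on low counts called 4 members (CIITA, CD74, HLA-DRA and HLA-DQB1, with 1.54% of all genes called) and DESeq2 called 2 (1.30%). The any-difference test likewise called 4 (4.22%) and 2 (6.11%). Leaving out 1 library gave 0 to 2 called members at 50 µmol/L and in the any-difference test, with the 2 found without lupeol 50 replicate 1 (at 50 µmol/L CD74 and HLA-DRA, and 2.34% of all genes). Without both control B and lupeol 80 replicate 1, an alternative chosen after seeing the data, 3 were called at 50 µmol/L (CIITA, CD74 and HLA-DQB1, 5.08%), 1 at 80 µmol/L (CIITA, -1.43, 4.78%) and 2 in the any-difference test (5.14%). The median between the doses was 0.10 to 0.62 with 1 library left out, and 0.10 without that pair of libraries. The class I count of 5 was 3 with DESeq2 size factors (0.979% of all genes called), library totals (0.945%) or robust estimation off (0.518%). It was 2 in a fit of the 2 groups alone (0.458%) and 0 to 7 with 1 library left out (0% to 2.13%).

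Some values that passed no test turned sign. With 1 library left out, HLA-DMA ran from -0.09 to 0.20, CTSB from -0.07 to 0.12, CD40 from -0.02 to 0.25, TAP1 from -0.05 to 0.12 and CD58 from -0.19 to 0.05 at 50 µmol/L. At 80 µmol/L, CREB1 ran from -0.11 to 0.15, NFYC from -0.02 to 0.04, CD83 from -0.02 to 0.63, B2M from -0.24 to 0.04 and EP300 from -0.23 to 0.16. Between the doses, CIITA ran from -0.06 to 0.57 and HLA-DQA1 from -0.07 to 1.76. Without control B and lupeol 80 replicate 1 these were -0.06 and -0.07, CREB1 was -0.13, EP300 -0.26, B2M -0.31 and CD83 0.77, and at 50 µmol/L CTSB was -0.08, TAP1 -0.01 and CD58 0.02. CTSB at 50 µmol/L was also -0.01 with library totals. The cause was not tested.

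Summing alternate copies of the members changed no value, since those copies hold no counts. HLA-DRB1 summed with HLA-DRB5, also added later, moved no call. No paired analysis was possible because 2 control columns carry no number and the others were numbered by accession order. HLA-DMB, HLA-DQA1 and HLA-DPB1 are limited by counts of 22 or fewer in each library.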
